A study of Homo sapiens with 12 samples.

Results

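The NBPF (neuroblastoma breakpoint family) genes were examined as 10 members, NBPF1, NBPF3, NBPF8, NBPF9, NBPF10, NBPF11, NBPF12, NBPF14, NBPF15 and NBPF20, taken by gene symbol from a table of 26641 genes. The same table holds 17 entries whose symbol starts with NBPF, and the other 7 (NBPF4, NBPF6, NBPF7, NBPF13P, NBPF18P, NBPF22P and NBPF25P) are described separately. RNA-seq was performed on polyA RNA from NCCIT, a human embryonal carcinoma line used as a model of early embryonic cells. LTR5HS is the long terminal repeat of the youngest HERVK endogenous retroviruses, and the experiment asked what happens to genes when an activator or a repressor is brought to these repeats throughout the genome.

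All 6 lines carried a doxycycline-inducible S. pyogenes dCas9 fusion and an array of 12 guide RNAs, both inserted with PiggyBac transposons under puromycin and G418 selection, and all 12 libraries were made after 4 days of doxycycline. Whether the lines were clonal is not stated in the sources used here. In 3 lines the fusion was dCas9-VPR (CRISPRa, VPR being an activation domain) and in the other 3 it was dCas9-KRAB (CRISPRi, KRAB being a repression domain). With each fusion, the LTR5HS Sp array brings the fusion to LTR5HS and is called recruitment (2 libraries). The LTR5HS Sa array, whose LTR5HS guides sit on an S. aureus scaffold, and the nontarget Sp array were pooled as control (4 libraries). Recruitment was thus a single line with each fusion, and an effect of the array cannot be told apart from a difference between lines. The SEs and p-values below reflect spread between libraries, with no second recruitment line. Libraries held between 13601701 and 69797411 counts, the deepest being dCas9-KRAB nontarget Sp replicate 2 and the next deepest holding 24840708, and no library stood at 0 for any member. Counts per member and library ranged from 42 for NBPF10 to 8657 for NBPF8. Levels are given as CPM, a gene's count relative to the TMM-scaled library size, and control values are listed as LTR5HS Sa replicates 1 and 2, then nontarget Sp replicates 1 and 2.

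NBPF genes encode proteins built largely of repeated Olduvai (DUF1220) domains, whose number has risen steeply in the human lineage. Most copies lie in the segmental duplications around 1q21, among the NOTCH2NL genes and in a region known for recurrent deletions and duplications linked to neurodevelopmental phenotypes, and a few older copies lie on 1p. The family takes its name from a gene disrupted by a translocation in a neuroblastoma. Because the copies are so alike, reads from one can match another.

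The sequences bearing on the comparison are the sites in the NBPF genes that the guides match. An exact match to the 16 listed guide bases followed by an NGG PAM was found at 2938 sites of GRCh38 (hg38), which merged into 950 clusters when sites closer than 1000 bp were joined. The paper reports that the array also bound the related LTR5A and LTR5B repeats. Which kind of repeat a cluster lies in was not checked. Within 100 kb of their start site, 6 of the 10 members had such a cluster, beside 1596 of the 15218 tested genes with a position, or 10.5%. These were NBPF8, NBPF9, NBPF11, NBPF12, NBPF15 and NBPF20. In each, the cluster lay inside the gene, downstream of the start, at 10.4 kb in NBPF8, 10.3 kb in NBPF9, 14.1 kb in NBPF11, 10.6 kb in NBPF12, 10.4 kb in NBPF15 and 10.4 kb in NBPF20. NBPF11, NBPF12 and NBPF15 had a second cluster within 100 kb, outside the gene. The cluster inside the gene was intronic in GENCODE 44 except in NBPF9, where it overlapped an annotated exon. The nearest cluster was 212 kb away for NBPF10, 407 kb for NBPF14, 1234 kb for NBPF1 and 4148 kb for NBPF3, in each case outside the gene. For NBPF10 and NBPF14, on the minus strand, the start used lay inside the gene model. It was chr1:146144804 in a model reaching 146229000 for NBPF10, and chr1:148596011 in a model reaching 148679742 for NBPF14. Distances from other starts were not measured. When 1 mismatch was allowed, the nearest cluster of NBPF3 was 1410 kb away on its other side. No member had a cluster within 10 kb. The count table gives no positions and its annotation is not named in the sources used here, so these positions rest on matching the gene symbols to GENCODE 44.

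NBPF12 (chr1:146938324-146996202, plus strand) shows the arrangement shared by the members with a cluster. Its 6 exact sites, at chr1:146948637-146949280, are shown as read on the guide's strand, 5′ to 3′, with the PAM in capitals. Guides 7 and 9 matched the strand opposite to the gene and the other 4 the gene's own strand.

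NBPF12 guide 7: aaccttggacaataccTGG

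NBPF12 guide 4: agcccgacacccgtaaAGG

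NBPF12 guide 8: taaagggtctgtgctgAGG

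NBPF12 guide 9: gacattccattgcccaGGG

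NBPF12 guide 1: tactaagggaactcagAGG

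NBPF12 guide 11: gaaacgcccacaggtgTGG

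NBPF11, NBPF15 and NBPF20 held the same 6 exact sites, while NBPF8 held 5 and NBPF9 held 3. Sites with 1 changed base were found in all 6: guides 2 and 5, with G15A and A12G, in every member but NBPF15, and guide 3, with G15A, in NBPF15. The sites of guides 4, 9 and 11 that lost an exact match are shown because they separate NBPF8 and NBPF9 from the other 4, with the changed base as well as the PAM in capitals and positions counted from 1 at the 5′ end of the guide. In NBPF8 the site of guide 4 carried C5A. In NBPF9 the site of guide 4 carried G13A, that of guide 9 carried G12A and that of guide 11 carried C5T.

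NBPF8 guide 4, chr1:120425157-120425175: agccAgacacccgtaaAGG

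NBPF9 guide 4, chr1:149093425-149093443: agcccgacacccAtaaAGG

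NBPF9 guide 9, chr1:149093322-149093340: gacattccattAcccaGGG

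NBPF9 guide 11, chr1:149092897-149092915: gaaaTgcccacaggtgTGG

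Windows of 1000 bp around the clusters were aligned locally, over 923 to 1000 bases. Over the aligned part, the 6 members were between 95.97% and 99.14% identical to one another.

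The start sites fell into different kinds. RefSeq promoters (GRCh38.p14), reaching from 250 bases before the start to 50 after it, were found for 9 members, all but NBPF20. Those of NBPF11 and NBPF12 were 99.23% identical over the aligned bases, and those of NBPF8, NBPF9 and NBPF15 were between 98% and 98.97% identical to one another. NBPF1 was 87.54% identical to NBPF3 and between 80.71% and 81.33% identical to the NBPF8, NBPF9 and NBPF15 group. With the first listed promoter of each gene, NBPF10 and NBPF14 matched each other over 41 bases and the other members over at most 21. The second listed promoter of NBPF14 (chr1:148595668-148595967) was not aligned, but most of it reads like that of NBPF10. The promoters of NBPF10 and NBPF14 are not shown. A promoter of each of the other kinds is shown to its first 30 transcribed bases, 5′ to 3′ on the gene's strand, with those 30 bases in capitals.

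NBPF12, chr1:146938074-146938353, plus strand: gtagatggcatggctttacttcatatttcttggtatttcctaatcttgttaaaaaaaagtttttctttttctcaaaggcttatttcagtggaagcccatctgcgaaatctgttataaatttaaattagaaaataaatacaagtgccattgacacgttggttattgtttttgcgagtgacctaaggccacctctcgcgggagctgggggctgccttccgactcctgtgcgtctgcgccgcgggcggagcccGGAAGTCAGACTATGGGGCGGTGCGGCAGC

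NBPF15, chr1:144461640-144461919, minus strand: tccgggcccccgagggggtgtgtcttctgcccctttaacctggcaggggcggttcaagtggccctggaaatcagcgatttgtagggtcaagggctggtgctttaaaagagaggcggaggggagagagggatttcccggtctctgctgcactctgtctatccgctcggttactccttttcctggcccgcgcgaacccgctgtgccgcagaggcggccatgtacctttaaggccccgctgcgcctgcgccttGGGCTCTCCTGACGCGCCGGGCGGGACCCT

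NBPF1, chr1:16613535-16613814, minus strand: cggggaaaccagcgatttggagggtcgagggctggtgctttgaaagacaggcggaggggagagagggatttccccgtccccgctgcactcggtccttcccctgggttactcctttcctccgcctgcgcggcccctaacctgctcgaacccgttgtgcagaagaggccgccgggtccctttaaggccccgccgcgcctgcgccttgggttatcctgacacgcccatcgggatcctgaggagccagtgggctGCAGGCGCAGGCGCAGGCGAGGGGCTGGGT

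Short motifs were searched as letters on both strands of the whole promoter window. The ETS core CCGGAAG occurred in NBPF11 and NBPF12, beside 10.3% of all 35116 RefSeq promoters, and the TATA letters TATAAA in the same pair, beside 11.5%. The GC box GGGCGG occurred in NBPF8, NBPF11, NBPF12 and NBPF15, beside 45% of all promoters, and CCAAT in NBPF14, beside 34.6%. These are matches of letters and no binding was measured. With CRISPRa, described below, every member with a promoter of the NBPF12 or the NBPF15 kind rose. In the main edgeR fit none of NBPF1, NBPF3, NBPF10 and NBPF14 did, and NBPF20, without a listed promoter, rose. Among members with a listed promoter, its kind thus went with the presence of a guide-match cluster. Their parts in the change cannot be told apart.

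With CRISPRa, 6 of the 10 members rose (edgeR's quasi-likelihood test, Benjamini-Hochberg adjusted over 16271 genes, threshold 0.05). No member fell in the main edgeR fit or in DESeq2, although NBPF3 had an unadjusted p of 0.0204 in that edgeR fit. With the replicate number as a block, the edgeR adjusted p of NBPF3 was 0.0355, past the threshold. The share called higher among all tested genes was 15.7%, and 28% were called in either direction. The members that rose were NBPF8, NBPF9, NBPF11, NBPF12, NBPF15 and NBPF20, the same 6 whose gene holds a guide-match cluster. The median log2 fold change of the members was 0.75, against -0.02 over all genes tested.

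NBPF12 stood at 158 and 170 CPM in the recruitment libraries, and at 36.6, 36.9, 29.9 and 31.1 CPM in the 4 controls. The recruitment libraries lay far above every control. The log2 fold change was 2.29 ± 0.12 (SE), a 4.89-fold difference, with an adjusted p = 9.18e-06 in edgeR's quasi-likelihood test. The paper reports chimeric transcripts between LTR5HS and NBPF12, which it found at few of the genes it calls LTR5HS-regulated. The share of the NBPF12 counts that come from such transcripts was not tested. NBPF20 is the longest gene model of the members in the table. It stood at 33.6 and 42.2 CPM with recruitment and at 5.84, 8.74, 6.97 and 7.20 CPM in the controls. It too had no overlap between the groups, and the log2 fold change was 2.40 ± 0.18 (SE; adjusted p = 4.50e-05, edgeR).

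NBPF11, whose promoter is nearly identical to that of NBPF12, stood at 121 and 151 CPM with recruitment. Its controls were at 47.1, 49.3, 39.8 and 42.8 CPM. Both recruitment libraries exceeded every control, and the log2 fold change was 1.60 ± 0.13 (SE; adjusted p = 7.80e-05, edgeR). NBPF15 stood at 137 and 186 CPM with recruitment and at 67.0, 71.2, 67.1 and 70.0 CPM in the controls. Its recruitment replicates were further apart than the 4 controls, and the log2 fold change was 1.23 ± 0.13 (SE; adjusted p = 0.000267, edgeR).

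NBPF8 and NBPF9, the members lacking some of these exact matches, had the smallest log2 fold changes of the 6; differences between members were not tested. NBPF8 stood at 313 and 291 CPM with recruitment and at 190, 187, 190 and 165 CPM in the controls. The groups did not overlap, and the log2 fold change was 0.72 ± 0.10 (SE; adjusted p = 0.00115, edgeR). NBPF9 stood at 34.7 and 41.7 CPM with recruitment and at 22.6, 24.6, 21.7 and 20.6 CPM in the controls. It was separated as well, with a log2 fold change of 0.78 ± 0.14 (SE; adjusted p = 0.00377, edgeR), but without recruitment replicate 2 the adjusted p was 0.0595 and the call was lost.

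The 4 members without a cluster within 100 kb did not pass the test. NBPF1 stood at 45.0 and 43.0 CPM with recruitment, inside its control range of 39.0 to 48.3 CPM, with a log2 fold change of 0.02 ± 0.12 (SE). NBPF10 and NBPF14 had log2 fold changes of 0.17 ± 0.21 and 0.16 ± 0.19 (SE), and both recruitment values of each lay inside the control range. NBPF3 stood at 33.6 and 37.6 CPM with recruitment and at 42.6, 45.2, 44.4 and 53.4 CPM in the controls. Both recruitment libraries were below every control, the log2 fold change was -0.38 ± 0.13 (SE), and the adjusted p was 0.0659. With the replicate number as a block it was 0.0355, past the threshold. In all, 6 members had every recruitment library above every control, beside 25.5% of tested genes, and NBPF3 alone had both below, beside 24.4%.

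**Figure D1:**
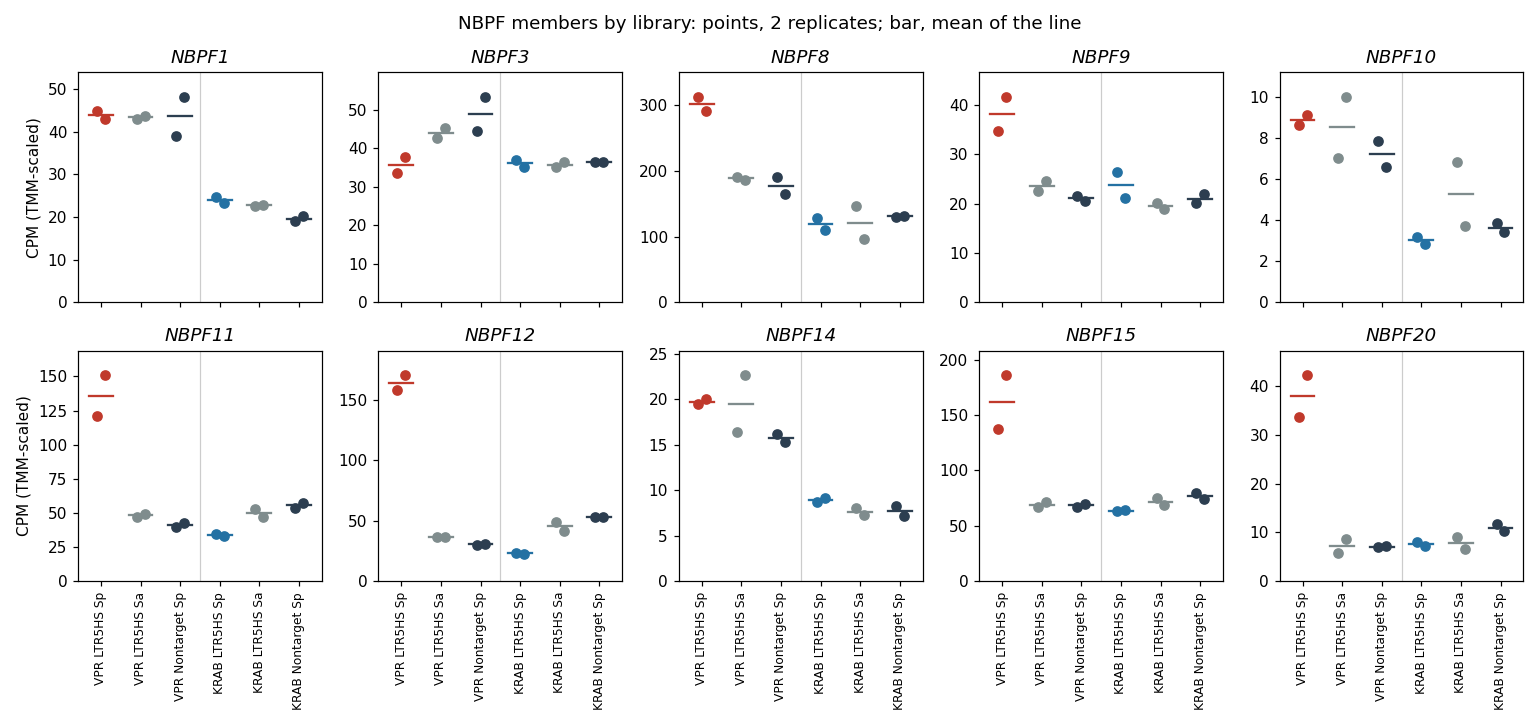
CPM of each member (vertical axis, from 0, TMM-scaled) in the 6 lines (horizontal axis); points are the 2 replicate libraries and bars the mean of a line. With dCas9-VPR the LTR5HS Sp libraries of NBPF12, at 158 and 170 CPM, lie above all 4 controls, while those of NBPF1 lie among them.

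With CRISPRi, 2 of the 10 members fell, NBPF12 and NBPF11, among 15520 genes tested with edgeR, of which 1.94% were called lower and 2.77% called in either direction. No member was called higher by edgeR, beside 0.831% of genes, or by DESeq2, and only the same 2 had an unadjusted p under 0.05. The median log2 fold change of the members was -0.15, against 0.0006 over all genes tested.

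NBPF12 stood at 23.4 and 22.8 CPM with recruitment. Its controls were at 49.0, 42.0, 53.5 and 53.0 CPM. The recruitment libraries were 0.468 times the control level, with a log2 fold change of -1.10 ± 0.14 (SE; adjusted p = 0.00181, edgeR) and no overlap. NBPF11 stood at 34.8 and 32.8 CPM with recruitment and at 53.3, 47.3, 54.0 and 57.4 CPM in the controls. The groups did not overlap, and the log2 fold change was -0.65 ± 0.12 (SE; adjusted p = 0.0191, edgeR). The NBPF11 call rested on the full set of libraries. The adjusted p was 0.11 and 0.174 without recruitment replicate 1 and 2, 0.0524 without LTR5HS Sa replicate 1, 0.0819 without nontarget Sp replicate 2, and 0.0925 with LTR5HS Sa as the only control. The log2 fold change lay between -0.57 and -0.70 in these fits.

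The other 8 members did not pass the test with CRISPRi. NBPF15 stood at 63.2 and 64.5 CPM, below all 4 controls at 75.3, 68.4, 79.7 and 74.2 CPM, with a log2 fold change of -0.22 ± 0.11 (SE) and an adjusted p of 0.415. NBPF10, the member with the fewest counts in any library, had -0.55 ± 0.32 (SE), and -0.27 without LTR5HS Sa replicate 1, the control at 6.82 CPM where the other 3 were at 3.72, 3.88 and 3.41 CPM. NBPF20 had -0.31 ± 0.23. NBPF8 had -0.08 ± 0.16 and NBPF3 had 0.00 ± 0.11. NBPF1, NBPF9 and NBPF14 had 0.19 ± 0.14, 0.23 ± 0.14 and 0.22 ± 0.16 (SE). Both recruitment libraries lay below every control for NBPF10, NBPF11, NBPF12 and NBPF15, beside 12% of tested genes, and above every control for NBPF1 and NBPF14, beside 11.3%.

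NBPF11 and NBPF12 were therefore the members higher with CRISPRa and lower with CRISPRi. Among the 15145 genes tested with both fusions, 222 (1.47%) had this pattern. The difference between the effects of recruitment with the 2 fusions was tested as an interaction over all 12 libraries, where 21% of 16673 genes were called and 11.5% were called higher and 9.53% lower with CRISPRa. It was past the threshold for 5 of the 10 members, all in that direction. On the log2 scale it was 3.39 ± 0.18 (SE) for NBPF12, 2.71 ± 0.31 for NBPF20, 2.25 ± 0.18 for NBPF11, 1.45 ± 0.16 for NBPF15 and 0.80 ± 0.20 for NBPF8. For NBPF9 it was 0.55 ± 0.19 with an adjusted p of 0.0594 in edgeR. NBPF8 fell out of the call without dCas9-KRAB recruitment replicate 2 (adjusted p = 0.0687) and without dCas9-VPR recruitment replicate 1 (adjusted p = 0.0522), and NBPF9 entered it under 4 alternatives.

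**Figure D2:**
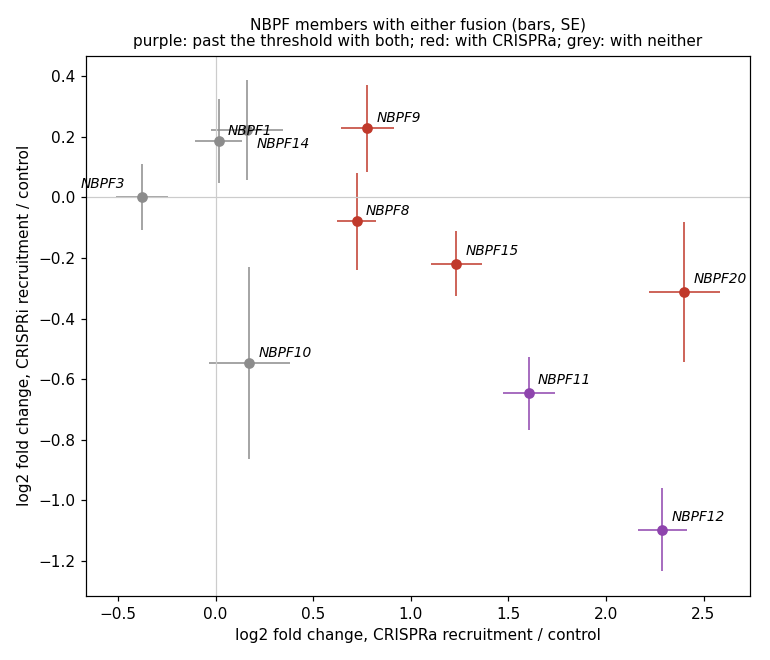
Log2 fold change of recruitment against control with CRISPRa (horizontal axis) and CRISPRi (vertical axis) for the 10 members; bars are SE from edgeR and colours show which tests were past the threshold. NBPF12, at 2.29 and -1.10, and NBPF11, at 1.60 and -0.65, lie lower right, and NBPF20 lies at 2.40 with -0.31 for CRISPRi.

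Read sharing limits how far neighbouring members can be told apart. In GENCODE 44 transcripts, windows of 150 bases, the length of 1 read, were compared between genes. Each distinct window of a gene counted once, so the shares below are not shares of reads or of the gene model. Of the NBPF11 windows, 30.6% also occurred exactly in NBPF12, and 26.3% of those of NBPF12 occurred in NBPF11. The share of windows found in any other gene was 65.4% for NBPF14, 61.6% for NBPF10, 40.9% for NBPF11, 37.2% for NBPF20, 34.5% for NBPF8, 31.6% for NBPF12, 30.4% for NBPF15 and 19.5% for NBPF9. It was 2.81% for NBPF1 and 0.064% for NBPF3. For windows of 300 bases, as a read pair taken as 1 stretch, it was between 0 and 15.1% except in NBPF10 and NBPF14, at 38.3% and 35.5%. NBPF1 and NBPF3 were thus the members with the fewest shared windows. Copies with no entry under their symbol also shared windows. Of the 150-base windows, NBPF26 held 18.1% of those of NBPF8 and NBPF19 held 13.4% of those of NBPF15. How reads matching several genes were counted is not given in the sources used here. Part of a change in one member can therefore be reads of another member or of such a copy, and this was not tested.

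The sum over the 10 members was 475 ± 17.9 CPM (SD, n = 4) in the dCas9-VPR controls and 948 ± 61.5 CPM (SD, n = 2) with recruitment, with no overlap. With dCas9-KRAB it was 402 ± 35.1 CPM (SD, n = 4) in the controls and 343 ± 20.1 CPM (SD, n = 2) with recruitment. The recruitment libraries, at 329 to 357 CPM, overlapped the controls, at 350 to 426 CPM. NBPF12 made up 17.2% to 17.5% of the summed CPM with CRISPRa recruitment against 6.46% to 7.65% in its controls, and 6.54% to 6.93% with CRISPRi recruitment against 11.5% to 12.8%.

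The position of the cluster was set beside the change for all genes. The limit of 15 kb was chosen after the distances of the members had been seen. Of the genes with a cluster within 15 kb of the start, 217 of 316 (68.7%) were higher with CRISPRa and 110 of 284 (38.7%) were lower with CRISPRi. Within 100 kb the shares were 45.8% and 15.4%, and beyond 100 kb they were 12.3% and 0.398%. The 6 members with a cluster at 10.3 to 14.1 kb all rose with CRISPRa and 2 of them fell with CRISPRi. In the main edgeR fit with CRISPRa, all members with a cluster and no member without a cluster were called. This is given as a description, since the positions, sequences and reads of the 6 are not independent.

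**Figure D3:**
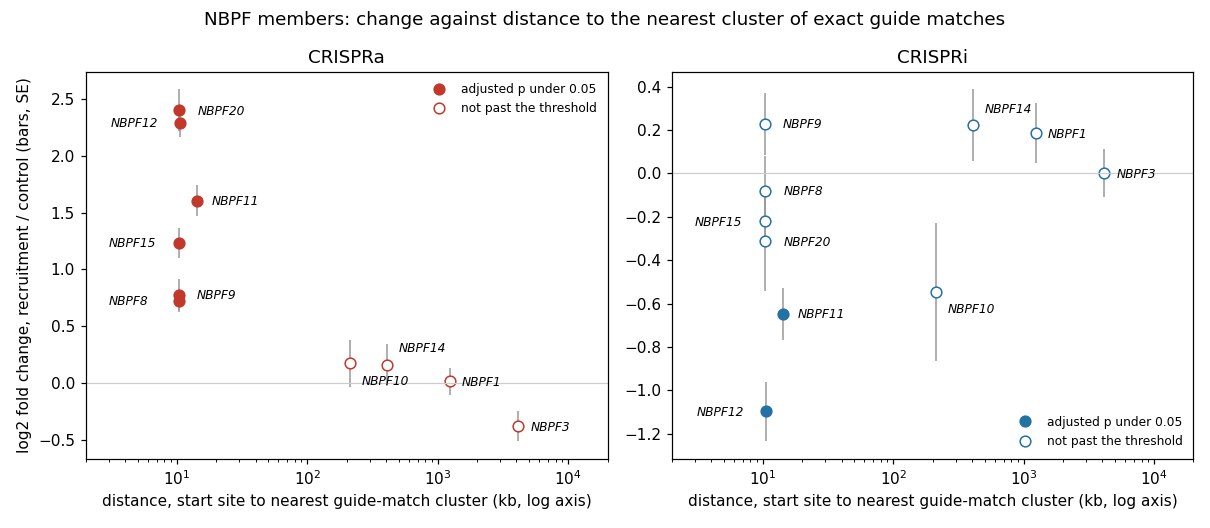
Log2 fold change of recruitment against control (vertical axis; bars, SE) with CRISPRa and CRISPRi against the distance in kb from the start site to the nearest cluster of exact guide matches (horizontal log axis). The members at 10.3 to 14.1 kb are all above 0 with CRISPRa, from 0.72 to 2.40, and the 4 members beyond 200 kb lie between -0.38 and 0.17.

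Without recruitment, the members differed widely in level. Per kb of gene model, which the table gives as a length, the median over the 8 control libraries was 30.3 CPM per kb for NBPF8, 14.7 for NBPF15, 8.95 for NBPF3, 8.49 for NBPF11, 5.55 for NBPF12, 5.20 for NBPF1, 4.19 for NBPF9, 1.17 for NBPF14, 0.589 for NBPF10 and 0.432 for NBPF20. Neighbours in this order did not overlap between NBPF8 and NBPF15, between NBPF15 and NBPF3, and between NBPF9 and NBPF14. The order also depended on the fusion: NBPF1 was above NBPF12 in all 4 dCas9-VPR controls (6.56 to 8.11 against 4.21 to 5.20 CPM per kb) and below it in all 4 dCas9-KRAB controls (3.21 to 3.84 against 5.90 to 7.53), and NBPF3 was above NBPF11 in the former 4 and below it in the latter 4. The pooled ranges of all other neighbours overlapped, although NBPF11 was above NBPF12 and NBPF14 above NBPF10 in 8 of 8 libraries. NBPF10 and NBPF14, the members with the most shared windows, were among the 3 lowest, and the part of read sharing in this order was not tested.

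**Figure D4:**
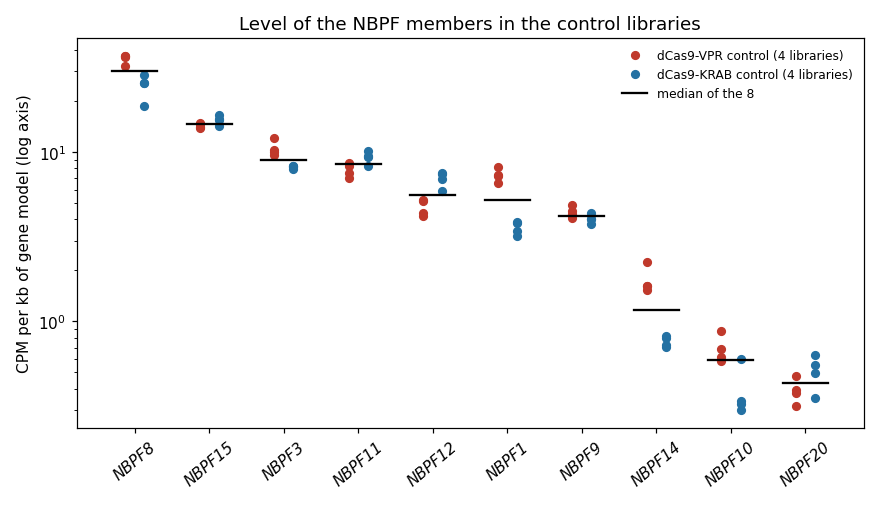
CPM per kb of gene model (vertical log axis) of the 10 members in the control libraries, 4 with dCas9-VPR and 4 with dCas9-KRAB; the black bar is the median of the 8. NBPF8, with a median of 30.3, is above the other 9 in every control library, and NBPF20 and NBPF10 are lowest.

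The control lines themselves differed between fusions. Of the 10 members, 6 were called between the dCas9-VPR and dCas9-KRAB controls (edgeR), beside 54.9% of 15448 genes tested, 27.2% being higher and 27.7% lower in dCas9-VPR controls, so the count is near the background. NBPF14, NBPF1, NBPF10, NBPF8 and NBPF3 were higher in dCas9-VPR controls, by 1.22, 1.06, 0.85, 0.55 and 0.38 on the log2 scale, and NBPF12 was lower, with a log2 fold change of -0.54. NBPF12 thus started from 33.6 ± 3.66 CPM (SD, n = 4) in one set of controls and 49.4 ± 5.32 CPM (SD, n = 4) in the other.

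Markers of cell identity were measured beside these values. All 12 pluripotent markers were lower in the dCas9-VPR controls than in the dCas9-KRAB controls (edgeR), with a median log2 fold change of -2.28. Their summed level was 1151 to 1773 CPM in the former and 5170 to 6472 CPM in the latter. With CRISPRa, SOX2, DNMT3B and ZFP42 fell and L1TD1 rose, and the sum was 1226 to 1277 CPM in the recruitment libraries. With CRISPRi no pluripotent marker was called by edgeR, 1 was called lower by DESeq2 and 7 had an unadjusted p under 0.05, and the sum was 4883 to 5192 CPM in the recruitment libraries. NANOG, POU5F1, SOX2 and LIN28A were detected in every library, but at unlike levels. Means in the dCas9-VPR and dCas9-KRAB controls were 2.39 and 150 CPM for NANOG and 14.2 and 69.6 CPM for POU5F1. SOX2 stood at 360 and 837 CPM, and LIN28A at 489 and 1267 CPM. Of 13 markers of other cell types, 4 were tested. COL1A1 and CDX2 rose and TUBB3 fell with CRISPRa, while with CRISPRi none was called by edgeR or DESeq2 and none had an unadjusted p under 0.05. Their summed level was 3043 to 3129 CPM with CRISPRa recruitment, nearly all COL1A1, against 218 to 300 CPM in the controls, and 204 to 276 CPM against 213 to 335 CPM with dCas9-KRAB. HBB was at 0 in every library, and PTPRC, KRT5, AFP, ALB, CD34, COL1A2, MYOD1 and SOX17 reached at most 0.278 CPM. The part of these differences in the NBPF changes was not tested, and in bulk samples fewer cells of a type and less RNA per cell cannot be told apart.

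Of the other 7 NBPF entries, NBPF25P was at a level like that of the lower members and the rest reached at most 0.894 CPM in the controls (NBPF4). NBPF13P, a pseudogene at chr1:147099482-147124285 with 5 guides matching inside it 17.8 kb downstream of its start, had 45 and 32 counts with CRISPRa recruitment and 0, 2, 0 and 1 in the controls. It entered the test only through the recruitment libraries, so its values are given as a description, and it had 0 or 1 counts in every dCas9-KRAB library. NBPF25P, at 1.29 to 1.96 CPM per kb in the dCas9-VPR controls, where NBPF10 was at 0.580 to 0.878, stood at 13.1 and 8.28 CPM with CRISPRa recruitment and between 4.94 and 7.48 CPM in the controls. It was called higher, with a log2 fold change of 0.81 ± 0.24 (SE; adjusted p = 0.0369, edgeR), and was at -0.20 ± 0.32 with CRISPRi, not past the threshold. NBPF4 was tested with CRISPRa alone and had -0.31 ± 0.49. NBPF6, NBPF18P and NBPF22P were below the count filter and NBPF7 was at 0 in every library.

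Genes adjoining the members were taken from lists of 1q21 and 1p36 neighbours and of NOTCH2 with its NOTCH2NL copies, 62 genes in the table. With CRISPRa, 53 were tested and 15 were called higher and 4 lower (edgeR), beside the 15.7% and 12.3% of all genes. On the 1q21 list 13 of 32 were higher and 3 lower, on the 1p36 list 2 of 19 were higher and 1 lower. The 1q21 list was made by symbol and also holds genes on the short-arm side of the centromere in hg38. Among these are FAM72B (from chr1:121167646) and SRGAP2C (from chr1:121184811), both called lower. With CRISPRi, 54 were tested and 3 were lower, 2 of 33 on the 1q21 list and 1 of 19 on the 1p36 list, beside 1.94%. Without CRISPRa recruitment replicate 1 or 2, 12 and 13 neighbours were called with CRISPRa instead of 19, of which 0 and 2 were lower. With the replicate number as a block 21 were called, 15 higher and 6 lower, CROCC and CROCCP3 being added.

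The 3 neighbours past the threshold with both fusions moved up with CRISPRa and down with CRISPRi. CHD1L, a chromatin remodeller in 1q21 whose start lies 1.94 kb from a guide-match cluster, had 634 and 655 CPM with CRISPRa recruitment against 106 to 123 CPM in the controls, and 43.6 and 46.4 CPM with CRISPRi recruitment against 118 to 168 CPM. Its log2 fold changes were 2.50 ± 0.10 and -1.64 ± 0.15 (SE). LIX1L, 25 kb from a cluster, had 1.53 ± 0.10 and -0.62 ± 0.12, and its CRISPRi call was lost with either control array alone and without recruitment replicate 1, recruitment replicate 2, LTR5HS Sa replicate 1 or nontarget Sp replicate 2. ALPL, the tissue-nonspecific alkaline phosphatase on 1p36, had 1.87 ± 0.14 and -1.35 ± 0.14, with its nearest exact match 4079 kb away. When 1 mismatch was allowed, a cluster at chr1:20030431-20030597 lay nearer to ALPL, and also to HSPG2 below. Past the threshold in edgeR with CRISPRa and not with CRISPRi, FMO5, a flavin monooxygenase, rose by 4.11 ± 0.20, ANKRD34A by 3.79 ± 0.31 and GJA5, the connexin 40 gene, by 3.63 ± 0.18 on the log2 scale, with clusters at 15.4, 31.5 and 26.4 kb. With CRISPRi, FMO5 lay between 0.135 and 0.672 CPM in the recruitment libraries against 1.09 to 3.76 CPM in the controls, a log2 fold change of -2.42 ± 0.69 (SE) with an adjusted p of 0.13 in edgeR and 0.0169 in DESeq2. GJA5 was at -0.82 ± 0.24 (adjusted p = 0.144, edgeR) and ANKRD34A at -0.16 ± 0.36. HSPG2, which encodes perlecan, FAM72B and FAM72D fell by 0.86 ± 0.25, 0.81 ± 0.18 and 0.80 ± 0.25, and their nearest clusters were 3651, 759 and 319 kb away. All 3 of these calls were lost without CRISPRa recruitment replicate 1. HSPG2 was also lost without recruitment replicate 2 and without nontarget Sp replicate 1, and FAM72D without any 1 of the 4 controls, with nontarget Sp alone and in the fit of all 12 libraries.

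NOTCH2 and the NOTCH2NL entry, whose copies alternate with NBPF genes in 1q21, did not pass the test within either fusion, by edgeR or DESeq2. NOTCH2NL had log2 fold changes of -0.25 ± 0.16 with CRISPRa and 0.49 ± 0.16 with CRISPRi (SE), with adjusted p = 0.3 and 0.21 in edgeR. The difference between the fusions was past the threshold for NOTCH2NL, at -0.73 ± 0.23 (SE; adjusted p = 0.035 in edgeR's interaction test), and not for NOTCH2, at -0.14 ± 0.18. With CRISPRi both genes had an unadjusted p under 0.05, and with CRISPRa neither had.

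The pattern of NBPF12 over the 6 lines was compared with that of 15134 genes tested with both fusions. Likeness was the mean absolute difference of the line means of log2 CPM, each gene centred on its own mean, for which the median gene had 0.742. The nearest outside the family were LINC00889 at 0.095, ZNF649-AS1 at 0.109 and SLC44A5 at 0.117. They were picked on the same 6 lines, recruitment included, so a change in the direction of NBPF12 follows from the choice. Their values are given as a description. With CRISPRa all 3 were called higher by edgeR, ZNF649-AS1 with a log2 fold change of 2.85 and SLC44A5 with 2.45. With CRISPRi they were at -0.81, -1.26 and -0.79, none called. Within the family NBPF20 was nearest at 0.226, then NBPF11 at 0.241 and NBPF15 at 0.398. NBPF1 and NBPF14 were farthest, at 0.855 and 0.858.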

How the data were processed

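The authors trimmed reads with cutadapt 1.8.1, aligned them to hg38 with HISAT2 2.1.0 and counted them per gene with featureCounts 1.4.6-p2, per the submitters' processing notes, after base calling with CASAVA 1.8. The values the authors deposited are raw counts per gene and library with a gene length. Annotation, strand setting and treatment of multiply matching reads are not given in the sources used here.

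Recruitment (2 libraries) was compared with pooled control (4 libraries) within each fusion, with edgeR 4.0.16 in R 4.3.3 (filterByExpr, TMM, quasi-likelihood F-test, Benjamini-Hochberg over all tested genes, threshold 0.05). The interaction was fitted over all 12 libraries. The scripts were tested on simulated data with 200 changed genes. Replicate numbers paired the samples in part: within each fusion, replicate differences of every pair of lines correlated across 16673 genes, with Pearson's r of 0.181 to 0.375. The main fits left the replicate number out, and refits with it as a block are given as alternatives. The labels number 2 replicates per line, and the paper calls them independent biological replicates. Guides were searched in hg38, and transcripts were compared in GENCODE 44 with Biopython 1.88. A floor of 3 counts covers counting error only.

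The members and lists were chosen with earlier results of these data known. Named are all members and other NBPF entries, neighbours past the threshold with both fusions, the 3 of largest change in each direction with 1 fusion, and the 3 genes most like NBPF12. The lists were members, NOTCH2 with NOTCH2NL, 1q21 and 1p36 neighbours, pluripotent markers and markers of other cell types.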

Additional observations from a re-analysis of the deposited data

Results flagged for a closer look

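Among 20 groups of 4 control libraries (10 members with each fusion), 4 held 1 library far from the other 3 by Dixon's test on the ratio of its gap to the group's range, where chance gives about 1 in 20. NBPF8 was lowest in dCas9-VPR nontarget Sp replicate 2 (ratio 0.854), at 165 CPM. NBPF14 was highest in dCas9-VPR LTR5HS Sa replicate 2 (0.860), at 22.6 CPM. NBPF3 was lowest in dCas9-KRAB LTR5HS Sa replicate 1 (0.858), at 35.0 CPM, in a group that spanned 35.0 to 36.5 CPM. NBPF10 was highest in dCas9-KRAB LTR5HS Sa replicate 1 (0.863), at 6.82 CPM.

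The effect of recruitment differed between the 2 fusions by the interaction test for NBPF12 (a difference of 3.39 on the log2 scale), NBPF20 (2.71), NBPF11 (2.25), NBPF15 (1.45) and NBPF8 (0.80), each higher with CRISPRa.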

How the results depend on the processing

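The results were recomputed with DESeq2's Wald test or its size factors, all 12 libraries fitted together, 1 control array at a time, every gene or only genes with 10 counts or more throughout, a stricter threshold of 0.01, the replicate block, and each library left out. A fit that left 1 recruitment library assumed that it varied like the others. The number of members changed with CRISPRa was 5 to 7 over the libraries left out and the other settings. With CRISPRi it was 2, and 1, NBPF12, with LTR5HS Sa as the only control and at 0.01, and 1 to 2 when 1 library was left out. The members higher with CRISPRa and lower with CRISPRi then numbered 1 with LTR5HS Sa as the only control and 1 to 2 when 1 library was left out. Neighbours changed with CRISPRa numbered 12 to 18 when 1 library was left out, against 19. DESeq2's Wald test called 5 neighbours with CRISPRi against 3, adding FMO5 and PRKAB2. No member had a guide-match cluster within 10 kb (0), against 6 within 100 kb.

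With the replicate number as a block, 7 members were changed with CRISPRa, NBPF3 being added at -0.38, 2 with CRISPRi, 5 by the interaction and 6 between the controls. Neighbours called with CRISPRa numbered 21 with the block and 22 with LTR5HS Sa alone, 6 of them lower in each. The block changed no other call of a member.

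Of 580 refits of single members, 554 kept direction and side of the threshold, 8 gained and 8 lost a call, and 10 changed sign, none of them past the threshold. Over the libraries left out, NBPF1 with CRISPRa ranged from -0.037 to 0.070, NBPF3 with CRISPRi from -0.042 to 0.035, NBPF8 with CRISPRi from -0.20 to 0.020 and the interaction of NBPF14 from -0.12 to 0.085. NBPF3 with CRISPRi was also at -0.000994 with all 12 libraries, -0.000617 with 10 counts or more throughout, -0.00633 with every gene and -0.016 with nontarget Sp alone. The cause of these changes was not tested.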
